A study of Mus musculus with 6 samples.

Results

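Ephs and ephrins, and semaphorins with their plexin and neuropilin receptors, are major families of guidance molecules that cells use to attract, repel and sort one another. The members described here are the protein-coding mouse genes whose symbol starts with Epha, Ephb, Efna, Efnb, Sema or Plxn, together with Nrp1 and Nrp2. That rule gave 53 of the 55400 genes in the deposited table: 9 EphA and 5 EphB receptors, 5 ephrin-A and 3 ephrin-B genes, 20 semaphorins, 9 plexins and 2 neuropilins. The rule used symbols only, and no measured value.

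Levels come from sequencing of polyadenylated RNA in 6 libraries of motor neuron progenitors, taken at day 4 of differentiation from embryonic stem cells of C57BL/6 mice. Cells of both groups were grown as embryoid bodies, received 1 µM retinoic acid and 0.5 µM SAG, an activator of Sonic hedgehog signalling, from day 2, and are described as treated with 1 µg/mL doxycycline for 36 h before harvest. All are labelled wild type (WT) in genotype. One group of 3 is labelled control and the other Setd5sh, which reads like a short hairpin RNA to Setd5. The labels do not spell this out, nor whether control cells carried another hairpin. Whether the replicates were separate cultures is not stated, and p-values therefore reflect the spread between these libraries alone, which may be technical.

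An Eph receptor is a receptor tyrosine kinase that binds an ephrin on the surface of a neighbouring cell, and signals can run into either cell. Ephrin-A proteins are held in the membrane by a lipid anchor and bind mainly EphA receptors, whereas ephrin-B proteins span the membrane and bind mainly EphB receptors. Semaphorins bind plexins; the secreted class 3 semaphorins mostly need a neuropilin as co-receptor, while classes 4 to 6 span the membrane and bind plexins directly. In the spinal cord these families are known for steering motor axons once neurons are born, with EphA4, ephrin-A5, the EphB receptors and the neuropilins among the best-studied members, and EphB and plexin-B proteins also act in dividing neuroepithelium.

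Setd5, the targeted gene, was listed at 22.2, 18.8 and 16.7 FPKM (fragments scaled to exonic length and to the library's total count) in control replicates 1, 2 and 3, and at 14.4, 13.5 and 12.9 FPKM in the Setd5sh replicates, so every Setd5sh library lay below every control library. The edgeR fit put this at -0.51 (SE 0.16) in log2, and since the unadjusted p of 0.0143 became 0.995 after adjustment, the difference did not pass the test over all genes. Total counts ran from 19639303 to 32046466. Of 7 progenitor markers, all were expressed at 1 FPKM or more on average, with Olig2 at 73.6 FPKM in control. Young-neuron genes, a list of 8, summed to between 30.7 and 41.4 FPKM in control libraries and to between 47.3 and 80.2 FPKM in Setd5sh libraries. Tubb3 made up much of that separation, with means of 20.8 and 46.4 FPKM. Without it the sums were 22.4, 13.4 and 13.6 FPKM in control and 23.3, 16.8 and 25.1 FPKM in Setd5sh, which overlap through control replicate 1 alone. All 5 tested genes of the list had a positive log2 fold change, against 42.6% of all genes tested, and 0 were called. The values were 1.15 for Tubb3, 0.86 for Ina, 0.38 for Elavl3, 0.32 for Nefl and 0.005 for Elavl4. The progenitor markers summed to between 238.6 and 261.4 FPKM in control and between 272.2 and 338.4 FPKM in Setd5sh. Olig2 and Nkx6-1 differed most, averaging 73.6 and 51.2 FPKM in control and 93.7 and 67.3 FPKM in Setd5sh. Sox2 and Pax6 hardly differed, averaging 74.6 and 6.69 FPKM in control and 74.0 and 6.73 FPKM in Setd5sh. The 4 floor plate markers summed to between 52.9 and 65.7 FPKM in control and between 70.3 and 75.1 FPKM in Setd5sh, nearly all from Foxa2 and Ntn1. How often sums of other lists separate was not computed. The 6 postmitotic motor neuron genes summed to between 14.1 and 24.6 FPKM in control and between 10.2 and 19.5 FPKM in Setd5sh. Mnx1 was the largest part of these sums and set their direction, averaging 14.9 FPKM in control and 9.77 FPKM in Setd5sh. Isl1 and Slc18a3 went the other way, averaging 1.28 and 0.627 FPKM in control and 1.90 and 1.17 FPKM in Setd5sh, with overlapping groups. Lhx3 averaged 0.597 and 0.63 FPKM, Chat 0.053 and 0.073 FPKM, and Isl2 0.10 and 0.093 FPKM. Endothelial and blood markers summed to at most 0.66 FPKM in any library, with Hbb-bt and Ptprc at 0 in all 6. Other lists were not absent. Fibroblast markers summed to between 5.71 and 8.96 FPKM in control and between 7.68 and 9.55 FPKM in Setd5sh. Mesoderm markers summed to between 5.09 and 10.4 FPKM and between 4.15 and 8.4 FPKM. Endoderm markers summed to between 23.4 and 36.9 FPKM and between 34.0 and 38.3 FPKM, mostly from Foxa2, which is also a floor plate marker. In bulk RNA a smaller number of cells of one type and less RNA per cell cannot be told apart, and the part of these markers in the values below was not tested.

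The families were expressed unevenly. A mean of 1 FPKM or more over the 6 libraries was reached by 35 of the 53 members, or 66.0%, against 49.4% of the 21896 protein-coding genes in the table. A mean of 10 FPKM or more was reached by 12 members, or 22.6%, against 22.1% of protein-coding genes. By subfamily, 5 of 5 ephrin-A genes and 3 of 3 ephrin-B genes were at 1 FPKM or more, as were 4 of 5 EphB and 3 of 9 EphA receptors. The semaphorins had 12 of 20 members at that level (4 of 7 in class 3, 4 of 6 in class 4, 1 of 2 in class 5, 3 of 4 in class 6 and 0 of 1 in class 7), the plexins had 7 of 9 (3 of 4 plexin-A, 2 of 3 plexin-B, plexin-C1 and plexin-D1), and the neuropilins 1 of 2. The members nearest the threshold were Sema3e and Epha7 just inside, at 1.05 and 1.16 FPKM, and Sema4f and Ephb1 just outside, at 0.927 and 0.918 FPKM.

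**Figure D1:**
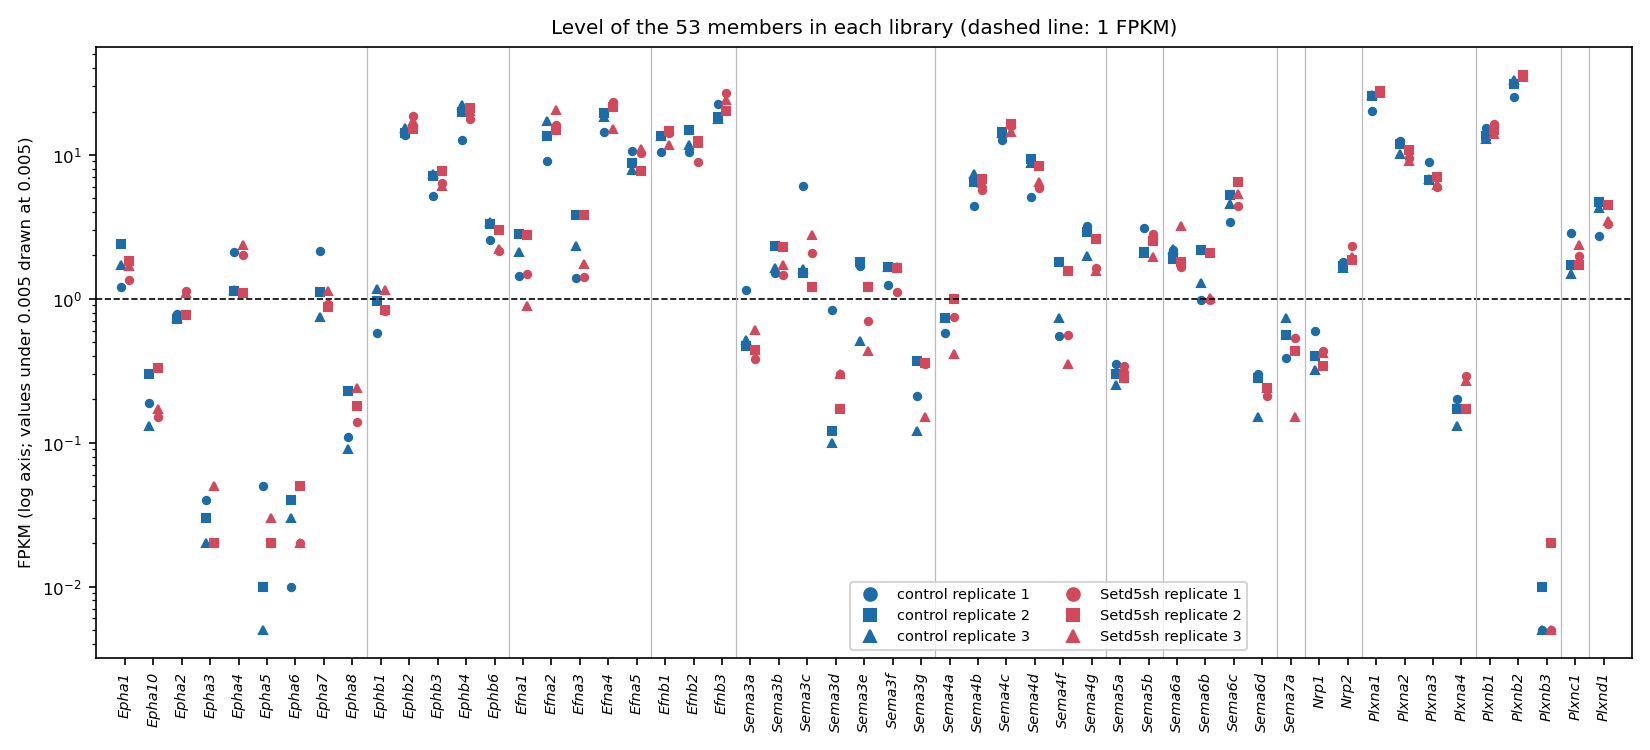
FPKM of each of the 53 members (log axis) in each of the 6 libraries, grouped by subfamily, with control in blue and Setd5sh in red and the marker shape giving the replicate number; the dashed line is 1 FPKM, and values under 0.005 FPKM are drawn at 0.005. The ephrins lie above the line on average in all 8 cases, whereas 6 of the 9 EphA receptors lie below it, down to a mean of 0.0217 FPKM for Epha5.

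Summed over members, the EphA receptors came to 6.66, 5.99 and 4.62 FPKM in control replicates 1, 2 and 3 and to 5.76, 5.18 and 6.77 FPKM in the Setd5sh replicates. Their main ligands, the ephrin-A genes, summed to 37.0, 48.5 and 47.9 FPKM in control and 52.5, 50.7 and 49.4 FPKM in Setd5sh. Ligand transcripts of class A were therefore several times more abundant than receptor transcripts in every library, with 6-library means of 47.7 and 5.83 FPKM. In class B the sums were close, with EphB receptors at 45.0 FPKM and ephrin-B genes at 46.4 FPKM. The plexins summed to 96.7 FPKM against 52.0 FPKM for the semaphorins, and the neuropilins to 2.30 FPKM. Of the semaphorin sum, class 4 made up 32.1 FPKM and the secreted class 3 8.08 FPKM.

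**Figure D2:**
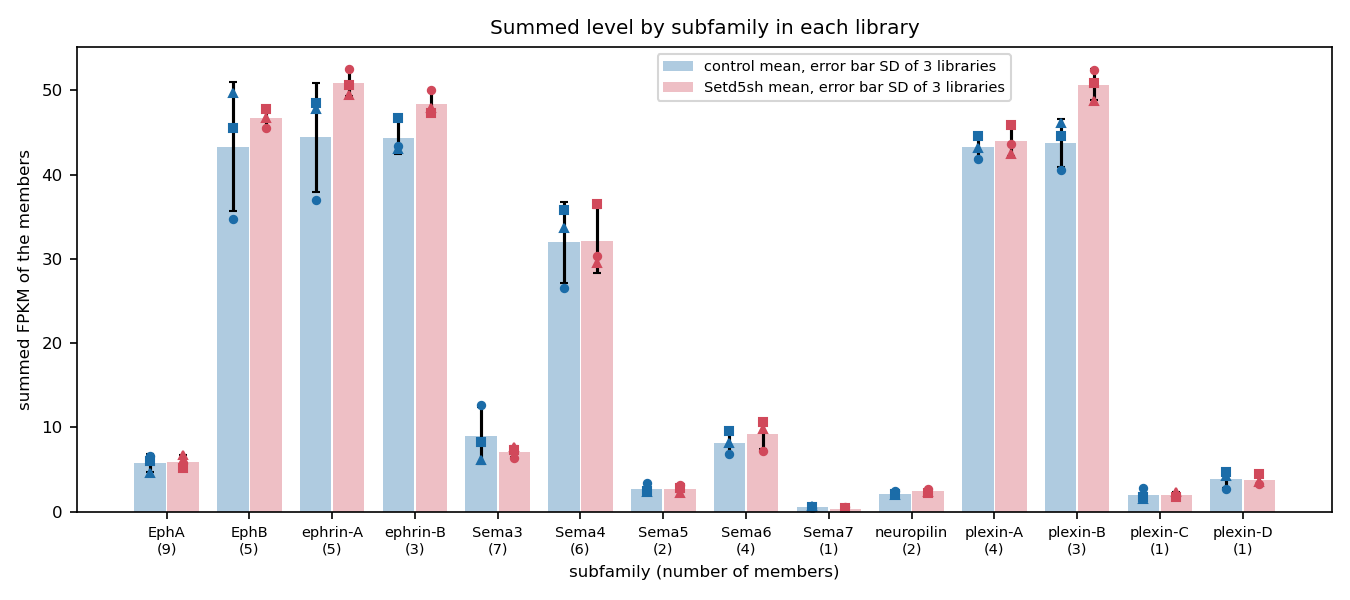
Summed FPKM of each subfamily, with bars for the mean of 3 libraries per group, error bars for the SD and points for single libraries. EphB, ephrin-A, ephrin-B, plexin-A and plexin-B sums lie between 34.8 and 52.5 FPKM in every library, and EphA, class 3 semaphorin and neuropilin sums at 12.7 FPKM or less.

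Among the EphA receptors no member was abundant. Epha1 stood at 1.21, 2.4 and 1.72 FPKM in control replicates 1, 2 and 3 and at 1.34, 1.84 and 1.69 FPKM in the Setd5sh replicates. Epha4, the receptor by which lateral motor column axons choose a dorsal path in the limb, stood at 2.12, 1.14 and 1.15 FPKM in control and 2.02, 1.09 and 2.35 FPKM in Setd5sh. In both groups the library numbered 2 was the lowest for Epha4, and the groups overlapped. Epha7 was highest in control replicate 1, at 2.15 FPKM, with the other 5 libraries between 0.75 and 1.13 FPKM. Epha2 averaged 0.87 FPKM, and Epha3, Epha5, Epha6, Epha8 and Epha10, the last of which lacks an active kinase, averaged between 0.0217 and 0.212 FPKM.

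The EphB receptors were led by Ephb4 and Ephb2. Ephb4 (ENSMUSG00000029710, chromosome 5, from 137350109 to 137378669 on the plus strand; positions are in mm10), known as the vascular receptor of ephrin-B2, stood at 12.7, 20.0 and 22.3 FPKM in control and 17.7, 21.1 and 20.2 FPKM in Setd5sh. Its lowest library was control replicate 1, below all 5 others. Ephb2 (ENSMUSG00000028664, chromosome 4, from 136647539 to 136835988 on the minus strand), which guides commissural and motor axons, stood at 13.7, 14.2 and 15.5 FPKM in control and 18.5, 15.2 and 17.2 FPKM in Setd5sh, and the groups overlapped narrowly. Ephb3 averaged 6.64 FPKM. Ephb1 stood at 0.58, 0.96 and 1.17 FPKM in control and 0.82, 0.83 and 1.15 FPKM in Setd5sh. Ephb6, whose kinase domain is inactive, stood at 2.56, 3.3 and 3.44 FPKM in control and 2.15, 3.01 and 2.23 FPKM in Setd5sh, lower in Setd5sh in all 3 pairs of the same replicate number but with overlapping groups.

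Efnb3, the ephrin-B of the midline barrier in the spinal cord, was the most abundant ephrin (ENSMUSG00000003934, chromosome 11, from 69554092 to 69560205 on the minus strand). It stood at 22.5, 18.3 and 17.8 FPKM in control and 26.9, 20.3 and 24.1 FPKM in Setd5sh, and was higher in Setd5sh within each pair while the groups overlapped. Efnb1 followed with 10.5, 13.5 and 13.6 FPKM in control and 14.2, 14.6 and 11.7 FPKM in Setd5sh, and Efnb2 averaged 11.7 FPKM, so the 3 ephrin-B genes differed among themselves by less than 2-fold in mean level. The ephrin-A genes spread more widely. Efna4 stood at 14.5, 19.5 and 18.4 FPKM in control and 23.1, 21.6 and 15.2 FPKM in Setd5sh, with overlapping groups. Efna2 stood at 9.02, 13.5 and 17.1 FPKM in control and 16.1, 14.8 and 20.6 FPKM in Setd5sh, lowest in control replicate 1 and higher in Setd5sh within each pair. Efna5, the repellent that Epha4-bearing motor axons meet in the limb, averaged 9.4 FPKM.

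The genes Efna1, Efna3 and Efna4 lie side by side on the minus strand of chromosome 3. On mm10, Efna1 runs from 89271733 to 89281142, Efna3 from 89313899 to 89322965 and Efna4 from 89333390 to 89338028, with gaps of 32.8 and 10.4 kb. Their levels were far apart, with Efna4 at 18.7 FPKM on average, Efna3 at 2.43 FPKM and Efna1 at 1.93 FPKM. Ephb2 and Epha8 are another pair of neighbours, 93.4 kb apart on chromosome 4, and averaged 15.7 and 0.165 FPKM. Part of the exonic sequence of Efna3 and Efna4 (14.1% and 10.5%) overlaps genes annotated on the opposite strand, as do 10.7% of that of Plxna1 and 6.0% of that of Epha1, the last with Zyx, so that reads there cannot be assigned with certainty without knowing whether counting used strand.

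Of the secreted class 3 semaphorins, Sema3c had the highest mean, but it rested on 1 library. Sema3c stood at 6.1, 1.5 and 1.6 FPKM in control and 2.09, 1.21 and 2.78 FPKM in Setd5sh, so that control replicate 1 was above each of the other 5 by a wide margin. Sema3b stood at 1.51, 2.34 and 1.63 FPKM in control and 1.46, 2.28 and 1.72 FPKM in Setd5sh, and in both groups the library numbered 2 was the highest. Sema3e, a ligand that can bind plexin-D1 without a neuropilin, stood at 1.68, 1.8 and 0.51 FPKM in control and 0.7, 1.2 and 0.43 FPKM in Setd5sh, lower in Setd5sh in all 3 pairs, with overlapping groups. Sema3f averaged 1.5 FPKM. Sema3a, the classical axon repellent, averaged 0.595 FPKM, and Sema3d and Sema3g 0.303 and 0.26 FPKM.

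The membrane-spanning semaphorins were more abundant, led by class 4. Sema4c, a ligand of plexin-B2, stood at 12.7, 14.4 and 14.1 FPKM in control and 15.9, 16.3 and 14.4 FPKM in Setd5sh, so that Setd5sh replicates 1 and 2 lay above all control libraries and replicate 3 did not. Sema4d, the ligand of plexin-B1, stood at 5.1, 9.41 and 8.74 FPKM in control and 5.85, 8.34 and 6.47 FPKM in Setd5sh, with the library numbered 1 the lowest of each group. Sema4b averaged 6.19 FPKM and Sema4a 0.702 FPKM. Sema4g stood at 3.18, 2.9 and 1.97 FPKM in control and 1.63, 2.6 and 1.57 FPKM in Setd5sh, lower in Setd5sh in all 3 pairs, with overlapping groups. Sema4f stood at 0.55, 1.8 and 0.74 FPKM in control and 0.56, 1.56 and 0.35 FPKM in Setd5sh, where the 2 libraries numbered 2 stood more than 2-fold above the other 4.

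In class 5, Sema5b stood at 3.1, 2.11 and 2.08 FPKM in control and 2.81, 2.52 and 1.94 FPKM in Setd5sh, and Sema5a at 0.35, 0.3 and 0.25 FPKM and 0.34, 0.28 and 0.33 FPKM. In class 6, Sema6c led with 3.4, 5.23 and 4.55 FPKM in control and 4.38, 6.48 and 5.37 FPKM in Setd5sh, higher in Setd5sh within each pair. Sema6a, which signals through plexin-A2 and plexin-A4, stood at 2.17, 1.89 and 2.22 FPKM in control and 1.66, 1.81 and 3.18 FPKM in Setd5sh, where the highest value belonged to Setd5sh replicate 3 alone. Sema6b and Sema6d averaged 1.42 and 0.237 FPKM. Sema7a, the lipid-anchored ligand of plexin-C1, stood at 0.39, 0.56 and 0.73 FPKM in control and 0.53, 0.43 and 0.15 FPKM in Setd5sh.

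The neuropilins were low, and Nrp2 exceeded Nrp1 in every library. Nrp2, the co-receptor used by Sema3f, stood at 1.8, 1.69 and 1.64 FPKM in control and 2.31, 1.87 and 1.95 FPKM in Setd5sh, so that the groups did not overlap. Nrp1, the co-receptor used by Sema3a, stood at 0.6, 0.4 and 0.32 FPKM in control and 0.43, 0.34 and 0.42 FPKM in Setd5sh.

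Plexins held the 2 most abundant members of all 53. Plxnb2 (ENSMUSG00000036606, chromosome 15, from 89155549 to 89180788 on the minus strand), which is needed for closure of the neural tube, stood at 25.2, 31.0 and 33.3 FPKM in control and 36.0, 36.0 and 34.7 FPKM in Setd5sh, without overlap. Plxna1 (ENSMUSG00000030084, chromosome 6, from 89316314 to 89362620 on the minus strand) stood at 20.3, 25.8 and 26.2 FPKM in control and 27.9, 27.9 and 27.0 FPKM in Setd5sh, again without overlap. In both genes control replicate 1 was the lowest library by a clear distance. Plxnb1 stood at 15.4, 13.6 and 12.8 FPKM in control and 16.4, 14.8 and 14.1 FPKM in Setd5sh, and the groups overlapped. Plxna2 stood at 12.6, 11.9 and 10.2 FPKM in control and 9.53, 10.8 and 9.01 FPKM in Setd5sh, lower in Setd5sh in all 3 pairs. Plxna3 stood at 8.87, 6.72 and 6.76 FPKM in control and 5.96, 7.06 and 6.22 FPKM in Setd5sh, where control replicate 1 was the highest. Plxnc1 stood at 2.87, 1.71 and 1.49 FPKM in control and 1.98, 1.72 and 2.38 FPKM in Setd5sh, and Plxnd1, a receptor best known in endothelium, at 2.71, 4.72 and 4.29 FPKM and 3.32, 4.45 and 3.48 FPKM, with both groups overlapping. Plxna4, common in later neurons, averaged 0.205 FPKM. Plxnb3 had 4 counts over the 6 libraries together, of which 3 were in Setd5sh replicate 2 and 1 in control replicate 2.

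The contrast between Plxnb2 and Plxnb3, paralogs at the top and the bottom of the levels, can be set beside their start regions. The 250 bases upstream of the annotated start were taken from RefSeq (GRCm38.p6, the mm10 assembly), and the dinucleotide CG, which reads the same on both strands, is in capitals. Plxnb2 (chr15:89180789-89181038, minus strand) held 20 CG and Plxnb3 (chrX:73756853-73757102, plus strand) held 3. Epha8 (chr4:136956817-136957066, minus strand) is shown because it held the most CG of all members, 46, at a mean of 0.165 FPKM.
Plxnb2: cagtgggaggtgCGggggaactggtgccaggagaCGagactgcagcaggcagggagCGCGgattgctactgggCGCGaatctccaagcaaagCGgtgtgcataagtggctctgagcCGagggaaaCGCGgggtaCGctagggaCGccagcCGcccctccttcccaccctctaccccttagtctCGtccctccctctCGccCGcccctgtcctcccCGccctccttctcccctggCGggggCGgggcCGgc
Plxnb3: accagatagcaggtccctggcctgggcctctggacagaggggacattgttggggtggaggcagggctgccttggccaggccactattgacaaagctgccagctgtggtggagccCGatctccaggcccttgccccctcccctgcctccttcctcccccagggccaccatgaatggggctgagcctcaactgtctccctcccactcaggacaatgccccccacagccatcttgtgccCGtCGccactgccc
Epha8: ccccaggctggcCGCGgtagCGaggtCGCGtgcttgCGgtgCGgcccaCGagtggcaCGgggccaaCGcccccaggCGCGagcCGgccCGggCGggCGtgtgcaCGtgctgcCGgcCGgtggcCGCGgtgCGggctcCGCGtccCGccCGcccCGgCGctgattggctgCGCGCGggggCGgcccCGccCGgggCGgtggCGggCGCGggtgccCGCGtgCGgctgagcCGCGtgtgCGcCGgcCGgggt

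Over the families, 47 of the 53 members had such a window, and the one nearest the GENCODE start was used for each. At least 10 CG stood in 26 of 30 windows of members at 1 FPKM or more and in 9 of 17 windows of members below it, with medians of 19 and 10 CG. Of all 32851 windows in the RefSeq table, 37.8% held at least 10. Those windows belong to 27025 genes at any level, some with several windows, so the share is not matched to the members. The same split by level was not made over all genes. Single members went both ways. Epha8 is given above, and Efna4, with its window at the GENCODE start, held 7 CG at 18.7 FPKM. Sema4d held 1 CG at 7.32 FPKM and Sema3a 2 CG at 0.595 FPKM, but their windows lie 37064 and 271370 bases from the GENCODE start. The windows of Plxna2, Epha10, Sema3c and Nrp1 lie 1611, 886, 535 and 469 bases from it. All 250 bases of the first 3 fall in annotated exons, as do those of the Plxnb1 and Sema4c windows. So do 243, 217 and 191 bases of the Sema4g, Sema5b and Efna1 windows, and smaller parts of some others. For 39 of the 47 members, the bases just after the window's start site occurred in a transcript of the gene. These counts describe the windows and were not tested. Efnb3, Plxna1, Plxna4, Sema3b, Sema3f and Sema6a had no window.

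The comparison of Setd5sh with control asks whether these guidance genes differ when Setd5 is targeted. The fit covered the 12199 genes at a mean of 1 FPKM or more, which include the 35 members at that level. The other 18 members were not tested. Sema3e and Epha7 reached that mean only through control, at 1.33 and 1.34 FPKM there and 0.777 and 0.977 FPKM in Setd5sh. Their negative estimates are therefore no support for a difference. None of the 35 passed at an adjusted p of 0.05 in edgeR's quasi-likelihood test with Benjamini-Hochberg adjustment over all genes, and neither did any other gene (0% called in each direction). An unadjusted p under 0.05 was found for 0 of the 35 members, against 149 of 12199 genes, or 1.22% (0.615% with Setd5sh higher and 0.607% with Setd5sh lower). That share over all genes lies below the nominal 0.05, so 0 of 35 is not evidence that the members were unchanged. Limma on log2(FPKM + 0.1) gave 1.26% of genes and 0 members. Among other fits, 1 of 53 members had such a p with no filter (4.69% of genes), 1 of 35 with the replicate block (2.69%) and 3 with GC and length trends taken out as well (6.95%). Dropping control replicate 3 gave 3 members (7.89%), dropping control replicate 1 gave 2 (2.96%), and dropping Setd5sh replicate 2 gave 1 (3.25%). DESeq2 on the same genes also called 0, with 221 genes, or 1.81%, and 0 members at an unadjusted p under 0.05. A positive log2 fold change (Setd5sh minus control) was found for 17 of the 35 members, or 48.6%, against 42.6% of all genes tested, and the median was -0.01 for the members against -0.043 for all genes.

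Counts of direction by role are given without a test. The ephrins had 5 of 8 positive, the Eph receptors 4 of 7, the semaphorins 4 of 12 and the plexins 3 of 7, and Nrp2 was positive. All 4 tested class 3 semaphorins had negative estimates, none called, but Sema3b and Sema3f were near 0, at -0.01 (SE 0.26) and -0.05 (SE 0.25). Sema3e entered the test only through its control mean. The estimate for Sema3c was 0.42 without control replicate 1, and that for Sema3b 0.18 without control replicate 2. Plexin-B1 and plexin-B2 were both positive. Groups of FPKM values did not overlap for 3 members, Nrp2, Plxna1 and Plxnb2, all with Setd5sh above control. That is 8.57% of the 35, against 3.07% of all genes tested in that direction, 2.14% in the other and 5.21% in either. For 3 libraries against 3, an exact two-sided permutation test of a single gene cannot go below p = 0.1.

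The 5 members with the smallest p in the positive direction were Plxnb2, Ephb2, Efna2, Efnb3 and Sema6c. Plxnb2 had 29.8 ± 4.15 FPKM in control and 35.6 ± 0.785 FPKM in Setd5sh (SD, n = 3 each), a log2 fold change of 0.25 (SE 0.14) with a 95% interval of -0.081 to 0.58, an edgeR unadjusted p of 0.12 and an adjusted p of 0.995. Ephb2 had 14.5 ± 0.904 FPKM and 17.0 ± 1.65 FPKM, and its log2 fold change was 0.22 (SE 0.15). For Efna2, with 13.2 ± 4.03 FPKM and 17.2 ± 3.05 FPKM, it was 0.38 (SE 0.25). For Efnb3 the log2 fold change was 0.27 (SE 0.18) and for Sema6c it was 0.30 (SE 0.21). Without control replicate 1 the value was 0.17 for Plxnb2, 0.20 for Efna2 and 0.17 for Sema6c. For Plxna1, which is not among the 5 but whose groups did not overlap, it went from 0.19 to 0.11. Efna2 stood at 0.61 without control replicate 3 and 0.23 when Setd5sh replicate 3 was dropped. With single libraries left out, Efnb3 ranged from 0.16 (without Setd5sh replicate 1) to 0.43 (without control replicate 1) and Ephb2 from 0.14 (without Setd5sh replicate 1) to 0.33 (without Setd5sh replicate 2). All 5 were higher in Setd5sh in all 3 pairs, and all had the same edgeR adjusted p as Plxnb2.

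In the negative direction the 5 were Sema4g, Plxna2, Sema3e, Ephb6 and Plxna3. Sema4g had 2.68 ± 0.633 FPKM in control and 1.93 ± 0.578 FPKM in Setd5sh (SD, n = 3 each), a log2 fold change of -0.49 (SE 0.27) with a 95% interval of -1.12 to 0.15, an edgeR unadjusted p of 0.114 and an adjusted p of 0.995. Sema3e had 1.33 ± 0.713 FPKM and 0.777 ± 0.391 FPKM. Its log2 fold change of -0.79 (SE 0.52) was the most negative estimate of the 35, with the widest interval but one. Since Sema3e passed the filter only through control, that rank is no support for a difference. The log2 fold change was -0.25 (SE 0.15) for Plxna2, -0.34 (SE 0.23) for Ephb6 and -0.23 (SE 0.18) for Plxna3. Without control replicate 1 these estimates were smaller for Plxna2, at -0.15, for Plxna3, at -0.046, and for Sema4g, at -0.30. Sema3e ranged from -1.20 without Setd5sh replicate 2 to -0.50 without Setd5sh replicate 3. Plxna3 was lower in 2 of 3 pairs and the other 4 in all 3.

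For 27 of the 35 members, or 77.1%, the 95% interval of the log2 fold change lay between -1 and 1, so that a 2-fold difference in either direction was outside it, as for 74.9% of all genes tested. This held for all 4 tested EphB receptors, all 3 ephrin-B genes and all 7 tested plexins. The interval reached past a 2-fold difference for Epha4, Epha7, Efna1, Efna3, Sema3c, Sema3e, Sema4g and Sema6b, most of them low in level or uneven between libraries. The narrowest intervals of the 35 were -0.14 to 0.47 for Sema4c, -0.13 to 0.51 for Plxna1 and -0.081 to 0.58 for Plxnb2.

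**Figure D3:**
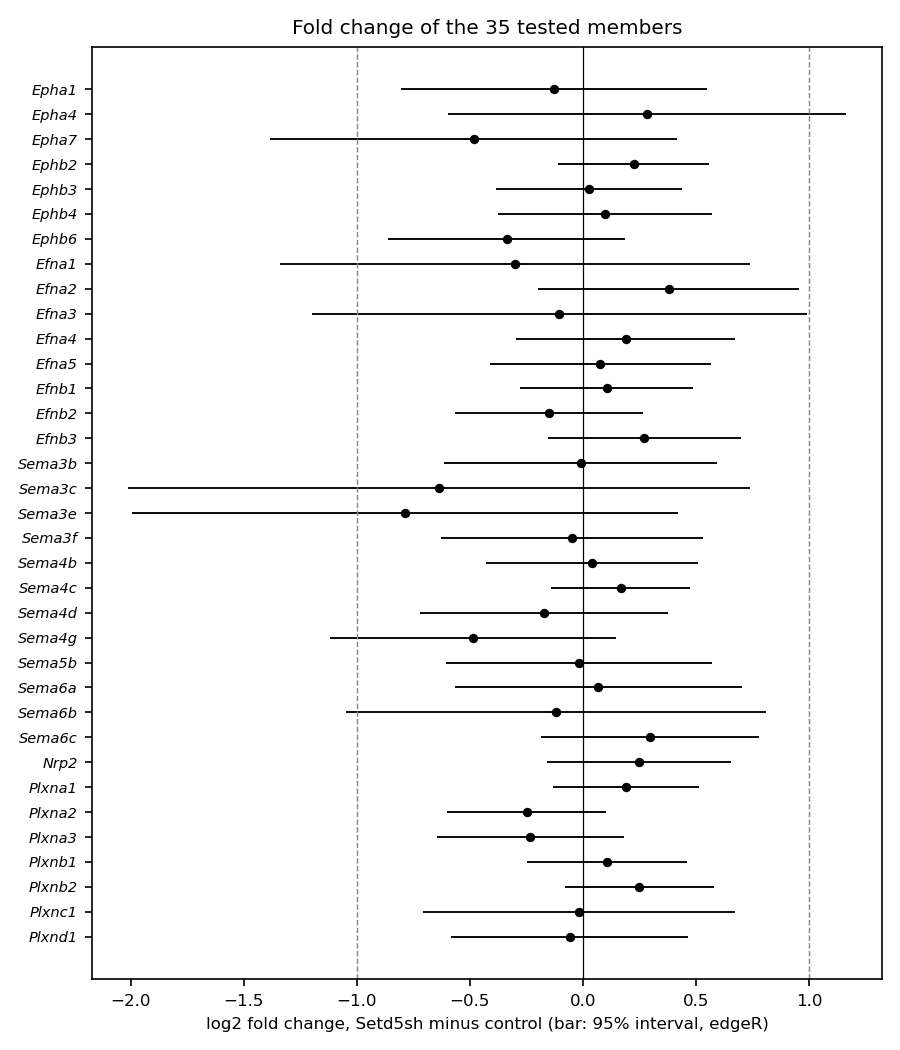
Log2 fold change (Setd5sh minus control) of the 35 tested members with its 95% interval from the edgeR fit, ordered by subfamily; dashed lines mark a 2-fold difference. Every interval includes 0, and those of Sema3c and Sema3e are the widest, at -2.01 to 0.74 and -1.99 to 0.42.

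Summed levels were also set side by side, with no test since the members of a sum were chosen together. Plexin-B genes summed to 40.6, 44.6 and 46.1 FPKM in control replicates 1, 2 and 3 and to 52.4, 50.9 and 48.7 FPKM in the Setd5sh replicates, the ephrin-B genes to 43.4, 46.7 and 43.1 FPKM and 50.1, 47.3 and 47.9 FPKM. In these and in the ephrin-A sums given above the groups did not overlap, with Setd5sh above control, whereas the other 11 of the 14 subfamily sums overlapped. The gap was narrow for the ephrin-B sums, from 46.7 to 47.3 FPKM, and for the ephrin-A sums, from 48.5 to 49.4 FPKM. How often sums of other gene sets do not overlap was not computed. The share of 3.07% for single genes in that direction is not a background for sums. Plxnb2 alone made up 69.3% of the plexin-B sum. The sum of all 53 members overlapped too, reaching 300.9 FPKM in control and starting at 299.7 FPKM in Setd5sh. For the EphB receptors, whose control mean was 43.4 ± 7.72 FPKM and Setd5sh mean 46.7 ± 1.13 FPKM (SD, n = 3 each), control replicate 1 alone lay low, at 34.8 FPKM. Class 4 semaphorins, at 31.98 ± 4.84 FPKM and 32.1 ± 3.86 FPKM, and plexin-A genes, at 43.2 ± 1.34 FPKM and 44.0 ± 1.76 FPKM, differed between groups by less than 1 SD.

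Single libraries and replicate numbers also moved with the members' levels. Control replicate 1 was the lowest of the 6 libraries for 16 of the 35 tested members, or 45.7%, against 37% of all genes tested, and the highest for 7, or 20%, against 32%. The 7 were Sema3c, Epha7, Plxnc1, Sema4g, Plxna3, Sema5b and Plxna2. Across the 35 members, the difference of control replicate 1 from the other 5 libraries in log2 level had a Spearman correlation of -0.543 with the GC content of the gene's longest transcript, and across 12190 genes tested one of -0.648; these are descriptions across genes, which share the libraries. Members were richer in GC than genes at large, with a median of 56.6% against 50%, and their median difference in control replicate 1 was -0.17 against 0 for all genes tested. The GC contents of the 7 ran from 41.7% for Epha7 and 42.7% for Sema3c to 55.0% for Plxna3, 57.5% for Sema4g and 60.2% for Sema5b, so that not all of them were low in GC. Without control replicate 1 the log2 fold change of Sema3c turned from -0.64 to 0.42 and that of Epha7 from -0.48 to 0.087. A fit that took out trends with GC and length, with the replicate number as a block, called 0 genes and therefore 0 members. The part of the GC trend in the members' values was not tested.

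**Figure D4:**
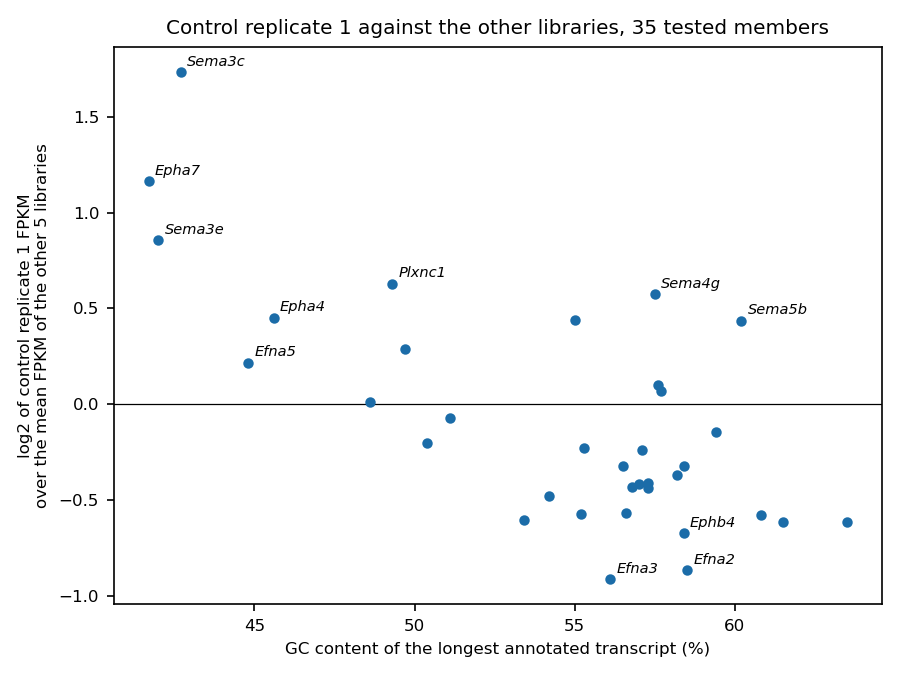
Log2 of the FPKM in control replicate 1 over the mean FPKM of the other 5 libraries, against the GC content of the longest annotated transcript, 1 point for each of the 35 tested members. Sema3c, Epha7 and Sema3e lie at 1.73, 1.16 and 0.86 on the left, and most members above 53% GC lie below 0.

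Both libraries numbered 2 lay above the other 4 for 7 members, or 20%, against 16.9% of all genes tested, a share near the background. Both libraries numbered 1 lay below the other 4 for 11 members, or 31.4%, against 13.9%, and above them for 2, against 6.23%. For those numbered 3 the members were 3 above and 2 below, beside 9.75% and 8.48% of all genes. Of the 7 high in the libraries numbered 2, Efna3 had the largest difference, at 1.4, 3.84 and 2.32 FPKM in control and 1.41, 3.85 and 1.74 FPKM in Setd5sh, which differed by 0.01 FPKM between the 2 libraries numbered 2. Its neighbour Efna1 stood at 1.45, 2.82 and 2.12 FPKM in control and 1.48, 2.79 and 0.89 FPKM in Setd5sh, and Sema6b at 0.98, 2.17 and 1.28 FPKM and 0.98, 2.07 and 1.01 FPKM. The others were Sema3b, Epha1, Plxnd1 and Efnb2. The 6 pluripotent cell markers also summed highest in the libraries numbered 2, at 3.82, 13.9 and 3.40 FPKM in control and 2.10, 9.77 and 1.13 FPKM in Setd5sh. Pou5f1 stood at 8.31 and 5.23 FPKM in the libraries numbered 2 and at 0.27 to 1.93 FPKM in the other 4. Mnx1 stood at 22.8 and 17.1 FPKM there and at 5.05 to 11.3 FPKM in the other 4. The part of these markers in the members' values was not tested. Sema3c and Epha4 went the other way, with both libraries numbered 2 below the other 4, as in 6.12% of all genes.

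**Figure D5:**
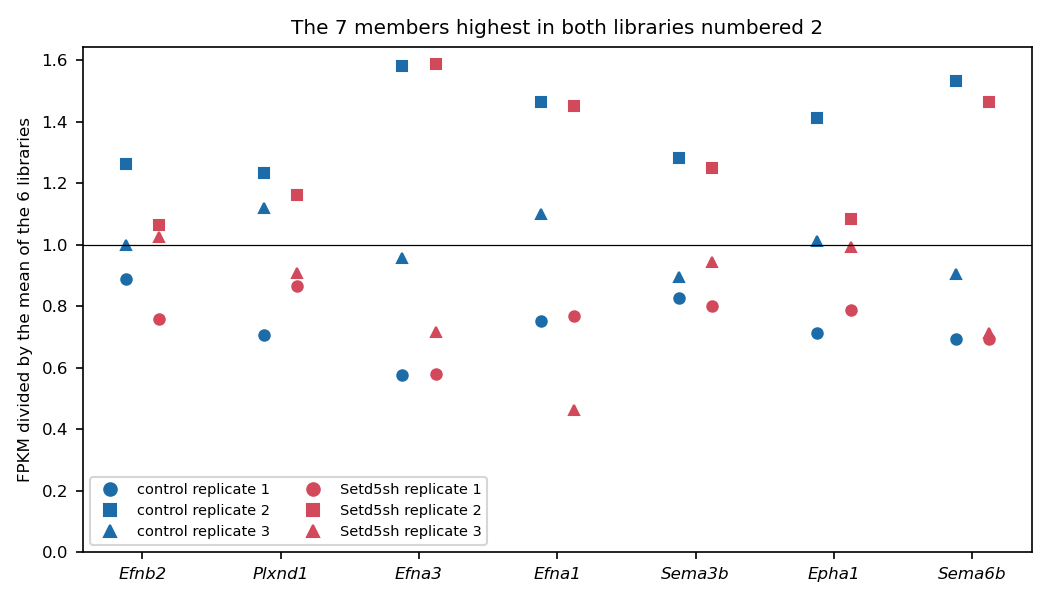
FPKM in each library divided by the mean of the 6 libraries, for the 7 members that were highest in both libraries numbered 2 (squares); blue is control and red Setd5sh. For Efna3 the squares lie at 3.84 and 3.85 FPKM in absolute level, against 1.40 to 2.32 FPKM in the other 4 libraries.

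Genes that work with these receptors gave the same count of calls. Of 29 Eph and ephrin partners, such as adaptors and exchange factors for small GTPases, 22 were tested, 12 with a positive and 10 with a negative log2 fold change, a median of 0.014 and 0 called in either direction. Of 36 semaphorin and plexin partners 31 were tested, 16 positive and 15 negative, a median of 0.017 and 0 called. Of 15 cytoskeletal effectors 14 were tested, 8 positive and 6 negative, a median of 0.02 and 0 called, beside a median of -0.043 over all genes tested.

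In the semaphorin list, Cntn2, an adhesion molecule of young axons, stood at 1.0, 1.13 and 1.18 FPKM in control and 2.4, 1.49 and 2.36 FPKM in Setd5sh, without overlap, at a log2 fold change of 0.91 (SE 0.24), an edgeR unadjusted p of 0.00548 and an adjusted p of 0.995. It was the only one of the tested partners in the 3 lists with an unadjusted p under 0.05. Dpysl5, a collapsin response mediator, had 0.43 (SE 0.21), the actin crosslinker Flna 0.31 (SE 0.16) and the small GTPase Rap1a -0.46 (SE 0.30) on the log2 scale. Among Eph partners the smallest p belonged to the Src-family kinase Yes1, at 8.88, 3.59 and 2.36 FPKM in control and 2.92, 2.96 and 3.52 FPKM in Setd5sh, where only control replicate 1 stood apart. The log2 fold change was -0.60 (SE 0.41) for the Ras regulator Rasa1 and -0.30 (SE 0.22) for the scaffold Sdcbp. Among effectors, the value was -0.90 (SE 0.54) for the kinase Rock1 and -0.90 (SE 0.54) for Rock2, with Rock2 at 12.1, 3.57 and 2.7 FPKM in control and 3.03, 3.15 and 3.95 FPKM in Setd5sh, where control replicate 1 again stood apart. For Wasl it was -0.17 (SE 0.17) and for Rhoa 0.11 (SE 0.17).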

How the data were processed

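Polyadenylated RNA of 6 libraries (3 control, 3 Setd5sh; groups and replicate numbers from the titles) was analysed from 1 deposited table. Per the file headers it holds raw read counts and FPKM per gene and library and each gene's exonic length; the deposited FPKM values equal count over length and column total to within 0.005. Tools named, without roles, in the submitters' processing notes are HTSeq, HISAT2, DESeq2 and SAMtools, and the build is mm10. Annotation release and strand setting: not given in the sources used here. GENCODE M21, which covers 55140 of the identifiers (99.53%), supplied symbols, coordinates and GC content, and RefSeq the promoter windows.

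The deposited counts were tested with edgeR 4.0.16 in R 4.3.3: TMM scaling, genes at a mean of 1 FPKM or more, quasi-likelihood, two-sided, Benjamini-Hochberg threshold 0.05. DESeq2 1.42.0 and limma 3.58.1, on log2(FPKM + 1) and log2(FPKM + 0.1), were alternatives, beside other scalings and filters, the replicate number as a block with and without GC and length trends removed, and each library left out. Scripts were tested on simulated data. Figures used matplotlib 3.10.9. Deviations from the group means correlated at 0.183, 0.663 and 0.139 for libraries numbered 1, 2 and 3. Each exceeds 0.1, but so does the 0.166 of control replicate 1 with Setd5sh replicate 3, which is above the value for those numbered 3. Only the libraries numbered 2 therefore stand out as a pair. The labels are silent on pairing, and the counts of pairs of the same replicate number given above are descriptions.

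Members and lists were chosen with earlier results of these data known. Values per library are given for the 2 most abundant members of each subfamily, the 5 tested members of smallest p per direction, and the 2 on either side of 1 FPKM; of each partner list, the 4 genes with the smallest p are named, except 1 that is not reported here. Efna1, Efna3 and Sema6b were added after their values were seen.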

Additional observations from a re-analysis of the deposited data

How the results depend on the processing

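No member was called under any of the 15 alternative fits. Genes called over the whole table were 0 in each fit but the one with no filter, which called 73 of 29462 genes (0.248%), 0 of them members, and gave a member median of 0.092 over all 53; that fit tests more genes. With the replicate number as a block, 0 genes and 0 members were called and the median was 0.013; with GC and length trends removed as well these were 0, 0 and -0.011, so pairing the libraries changed no call. Without single libraries the median ran from 0.00 to 0.064, and 0 genes were called. Of 405 values for 27 named members, 377 kept their direction; 28, in 9 members, turned, and the cause was not tested. Plxnc1 turned to 0.015 with edgeR's own filter, 0.045 and 0.023 in limma with pseudocounts of 0.1 and 1, 0.071 with no filter, 0.038 with the replicate block and 0.062 with trends removed as well. Sema3b turned to 0.013 and 0.048 with edgeR's filter and none. Sema5b turned to 0.012 with edgeR's filter, 0.004 and 0.002 in limma with pseudocounts of 0.1 and 1 and 0.065 with no filter. Without single libraries the log2 fold change ran from -0.98 to 0.42 for Sema3c, -0.77 to 0.087 for Epha7, -0.32 to 0.12 for Epha1, -0.079 to 0.27 for Ephb4, -0.20 to 0.37 for Plxnc1, -0.24 to 0.070 for Plxnd1, -0.17 to 0.18 for Sema3b, -0.15 to 0.25 for Sema5b and -0.28 to 0.23 for Sema6a. Members at 1 FPKM or more numbered 34 to 36 without single libraries, 36 and 33 in control and Setd5sh libraries alone, and 44 at 1 TPM; 40 and 26 reached 0.5 and 2 FPKM. For low members such as Plxnb3, with 4 counts in all, depth allows no comparison.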

Other observations

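Sema3e was the member that most often had an unadjusted p under 0.05 in other edgeR fits. In the filtered fits Sema3e was included only through its control mean. Its log2 fold change was -0.71 with no filter, where 29462 genes were tested. On the 12199 filtered genes it was -0.72 with the replicate block and -0.46 with GC and length trends removed as well. Without control replicate 3, on the same genes, it was -1.17. Such a p was reached by 4.69%, 2.69%, 6.95% and 7.89% of the genes tested, in that order. These fits reuse the same libraries and are not independent. The edgeR adjusted p of Sema3e in them was 0.848, 0.938, 0.693 and 0.566, so it passed in none. Both libraries numbered 3 were the lowest for Sema3e, a pattern found in 8.48% of all genes tested. Plxnd1, the plexin that binds Sema3e, had a log2 fold change of -0.059 (SE 0.23).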
